A study of Caenorhabditis elegans with 6 samples.

Results

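The MCM helicase and GINS genes were followed in Caenorhabditis elegans, a nematode, in larvae of the first stage (L1) that had been starved since hatching. They are 10 named genes, mcm-2 to mcm-7, mcm-10, psf-1, psf-2 and psf-3, out of 17118 genes measured on the array. A probe set, the group of short probes that reads a transcript, was taken when the platform annotation gave it a single gene symbol and that symbol was on this list. This gave 12 probe sets of 22548, with 2 each for mcm-3 and mcm-7 and 1 each for the other genes. Where a gene had more than 1 probe set, the brighter over all 6 arrays represents it.

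The larvae were lin-35(n745) mutants or wild type, with 3 one-colour Affymetrix arrays for each genotype. Eggs of both genotypes were isolated by bleaching and kept in buffer without food or cholesterol at 20 °C, and the hatched larvae were collected 30 h later, so every difference here is between genotypes within starvation. RNA came from whole larvae, and the labels call the arrays of a genotype biological replicates. The gene lin-35 encodes the only retinoblastoma-family protein of the worm, and n745 is a nonsense mutation in it. This single allele was profiled, with no rescued strain and no fed larvae in the arrays analysed here. Expression is given in log2 units as summarised by RMA (robust multi-array averaging), so a difference of 1 is 2-fold. A gene is said to rise when its adjusted p in limma, a linear model fitted to all probe sets with pooled variance, is under 0.05 (Benjamini-Hochberg over all 22548). The probe sets of lin-35 itself do not check the genotype, since a nonsense mutation leaves the probed sequence in place, and its brighter probe set differed by 0.06 (SE 0.19, limma adjusted p = 0.894).

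Cells copy their DNA with a helicase whose core is a ring of the MCM-2 to MCM-7 proteins. The origin recognition complex, CDC-6 and CDT-1 load this ring on DNA before S phase, and it becomes active when CDC-45 and the GINS complex bind to it, with MCM-10 acting at the same step. GINS is built from the PSF-1, PSF-2, PSF-3 and SLD-5 proteins. In animals generally, genes of these proteins are classic targets of E2F factors and their retinoblastoma-family partners. Blast cells of an L1 larva that hatches without food stay arrested, and they divide after feeding. No probe set with the single symbol sld-5 or cdc-45 (evl-18) was used, so the fourth GINS subunit and CDC-45 were not analysed here.

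Of the 10 genes, 7 rose in lin-35(n745) larvae, none fell and 3 did not pass the test. Among all 17118 genes 5.71% were called higher and 6.12% lower. Those that rose were the ring genes mcm-2, mcm-3, mcm-4, mcm-5 and mcm-7 and the GINS genes psf-1 and psf-2. The median log2 difference over the 10 genes was 1.45, against −0.04 over all genes, and single genes ran from 0.35 for mcm-10 to 2.46 for mcm-7. On all 12 probe sets the lowest lin-35(n745) array lay above the highest wild-type array, a pattern seen for 13.3% of all probe sets. RNA from whole larvae cannot tell more cells that carry these transcripts from more transcript in each cell.

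**Figure D1:**
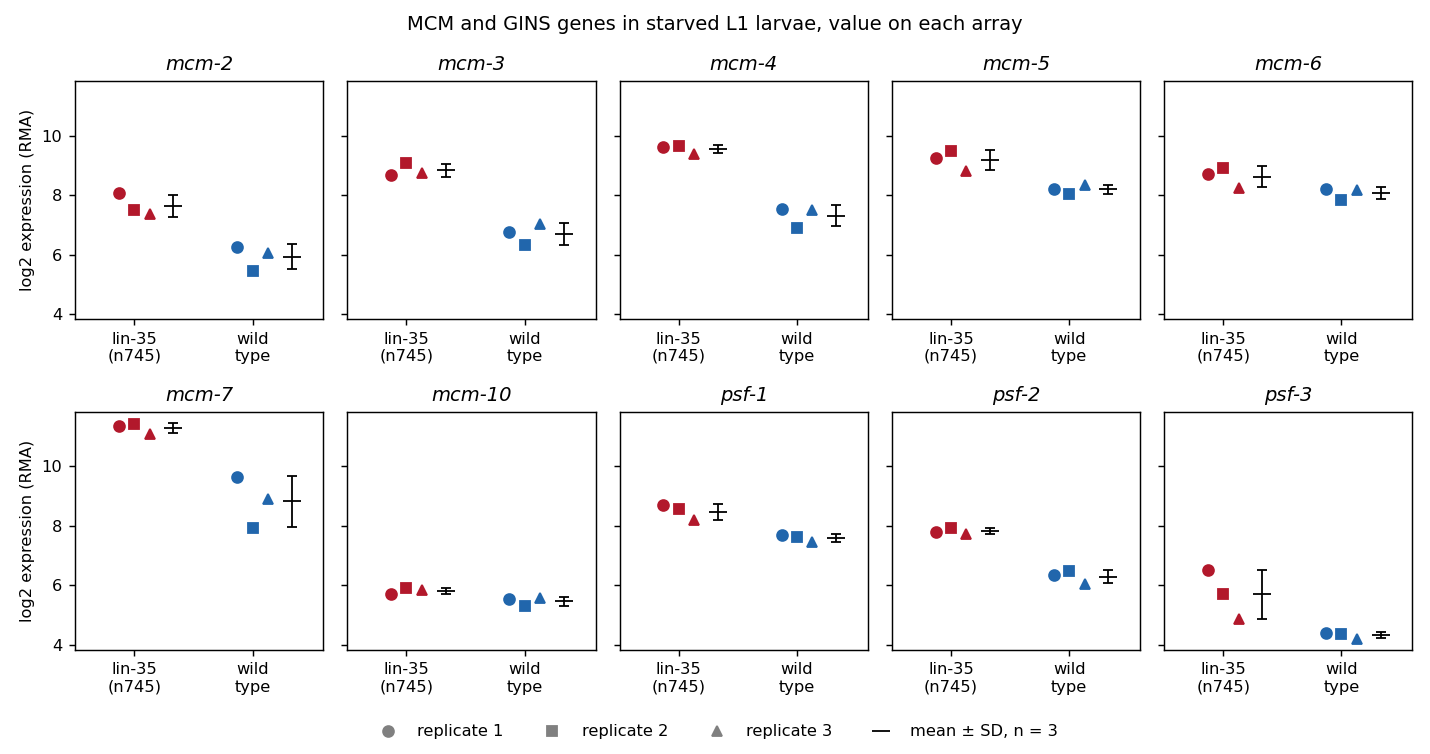
Log2 expression (RMA) of the 10 genes on each of the 3 lin-35(n745) arrays (red, left) and 3 wild-type arrays (blue, right), with symbols for replicates and the mean ± SD beside them. In no gene do the genotypes overlap, and the gap is narrow for mcm-6 (0.04) and wide for mcm-4 (1.85).

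The ring genes mcm-7 and mcm-4 showed the highest differences of the 10. MCM-7, a ring subunit, has its transcript read by 2 probe sets. The brighter gave 11.35, 11.43 and 11.10 on lin-35(n745) replicates 1 to 3, against 9.64, 7.94 and 8.91 on wild-type replicates 1 to 3. The mutant arrays were close together while the wild-type arrays spread widely, with wild-type replicate 2 far below the others. The difference was 2.46 (SE 0.40, limma adjusted p = 0.0103), which is 5.51-fold. The dimmer mcm-7 probe set read 9.92, 10.49 and 10.23 in the mutant and 8.26, 7.02 and 7.66 in the wild type, a difference of 2.57 (SE 0.32, limma adjusted p = 0.004). Both mcm-7 probe sets thus rose, with wild-type replicate 2 lowest on each.

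MCM-4 is also a ring subunit, and its transcript had the smallest gene-level p among the 10. Readings of mcm-4 were 9.61, 9.66 and 9.38 in lin-35(n745) larvae and 7.53, 6.89 and 7.49 in wild-type larvae. They averaged 9.55 ± 0.15 in the mutant and 7.31 ± 0.36 in the wild type (SD, n = 3 each), a difference of 2.24 (SE 0.21, limma adjusted p = 0.00144) or 4.73-fold. This gene kept its call in each of the 16 alternatives that changed its processing, including the 6 that leave out an array.

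For mcm-3, which encodes another ring subunit, the brighter probe set read 8.66, 9.08 and 8.75 in the mutant, against 6.75, 6.31 and 7.03 in the wild type. It differed by 2.13 (SE 0.22, limma adjusted p = 0.00213), which is 4.39-fold. Its other probe set read 8.99, 8.20 and 8.33 in the mutant, against 7.04, 6.10 and 6.71 in the wild type, a difference of 1.89 (SE 0.30, limma adjusted p = 0.0102). The order of the mutant arrays was not the same on the 2 probe sets: replicate 2 was highest on the brighter and lowest on the dimmer, although on each every mutant array exceeded every wild-type array.

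The ring gene mcm-2 read 8.06, 7.48 and 7.36 in lin-35(n745) larvae and 6.27, 5.46 and 6.04 in wild-type larvae. Its difference was 1.71 (SE 0.27, limma adjusted p = 0.0102), which is 3.27-fold. Mutant replicate 1 was the highest here, and wild-type replicate 2 was again the lowest. Like mcm-3, mcm-4 and mcm-7, mcm-2 kept its call when any 1 of the 6 arrays was left out.

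Smaller differences were found for mcm-5 and mcm-6. The ring gene mcm-5 read 9.24, 9.50 and 8.82 in the mutant and 8.19, 8.04 and 8.35 in the wild type. It rose by 0.99 (SE 0.21, limma adjusted p = 0.0256), close to 2-fold at 1.99. This call was lost without lin-35(n745) replicate 1 (adjusted p = 0.0566), lin-35(n745) replicate 2 (0.0553), wild-type replicate 1 (0.0937) or wild-type replicate 2 (0.0829), while the difference stayed between 0.84 and 1.30 over all alternatives.

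The ring gene mcm-6 read 8.71, 8.91 and 8.24 in the mutant, against 8.20, 7.84 and 8.18 in the wild type. Mutant replicate 3 almost touched the upper wild-type arrays, and the lowest mutant reading exceeded the highest wild-type reading by 0.04. The difference was 0.54 (SE 0.22, 95% confidence interval 0.04 to 1.05), and it did not pass the test (limma adjusted p = 0.16, unadjusted p = 0.0386). It was called in none of the 17 alternatives run for its probe set, where its adjusted p lay between 0.064 and 0.374.

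**Figure D2:**
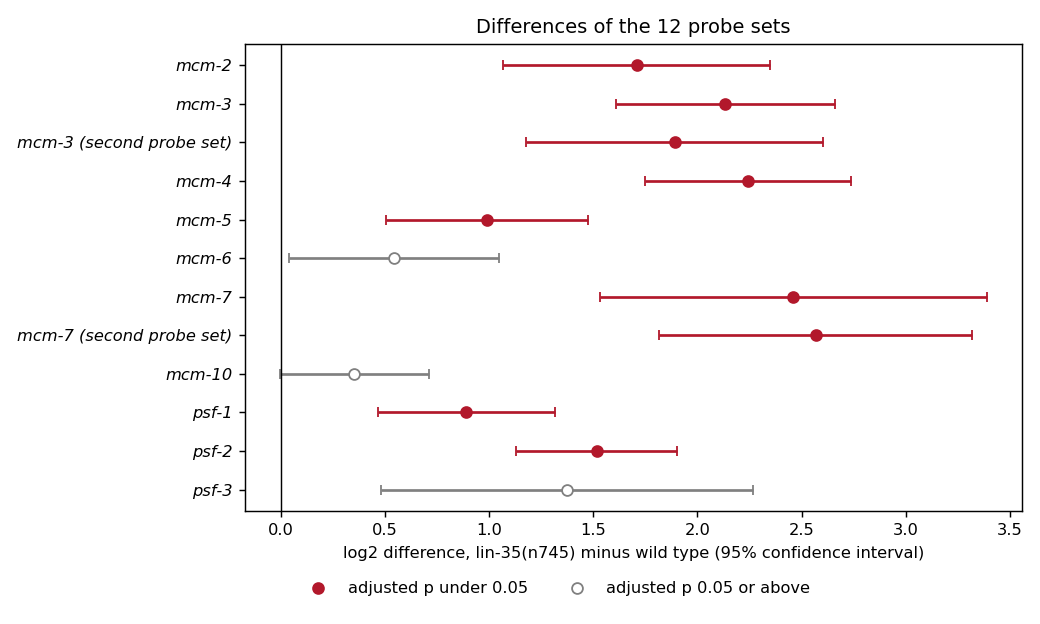
Log2 difference, lin-35(n745) minus wild type, of each of the 12 probe sets, with limma's 95% confidence interval (3 arrays per genotype). Red points passed the adjusted p of 0.05 and grey points did not. The intervals of mcm-4 (1.75 to 2.74) and mcm-6 (0.04 to 1.05) do not overlap. This is no test between these genes, which were read on the same arrays and picked after their values were seen.

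The 6 ring proteins are present once each in the helicase, and the measured differences of the ring genes ran from 0.54 to 2.46 on this array. Each pair of ring genes was compared by the log2 ratio within each array, lin-35(n745) minus wild type, with an exact two-sided permutation test over the 6 arrays. With 3 arrays against 3 the smallest p this test can give is 0.1, so none of the 18 pairs compared (15 ring and 3 GINS) could pass 0.05, and the smallest value after Benjamini-Hochberg adjustment was 0.18. Pairs that share a gene are not separate observations. The ratio of mcm-7 to mcm-6 was 1.92 higher on the log2 scale in the mutant, that of mcm-4 to mcm-6 was 1.70 higher, and that of mcm-5 to mcm-6 was 0.45 higher (exact permutation p = 0.1 for each). The difference of mcm-4 exceeded that of mcm-3 by 0.11 (exact permutation p = 0.6), and that of mcm-7 exceeded that of mcm-4 by 0.22 (exact permutation p = 0.7). Probe sets respond differently to the same change in RNA, so an unequal difference between probe sets need not be an unequal difference in transcripts.

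The kind of probe set also divided the genes. Those of mcm-2, mcm-3, mcm-4, mcm-5 and mcm-7 are marked in their identifiers as able to match several transcripts, and all 5 of these genes rose. Of the 5 genes read by probe sets without that mark, mcm-6, mcm-10, psf-1, psf-2 and psf-3, 2 rose. Over the whole array 7.85% of marked and 4.77% of unmarked probe sets were called higher. The part of this difference in the ring result was not tested.

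Within a genotype the ring genes shared some, not all, of their order over the arrays. Their mean log2 expression was 9.27, 9.34 and 8.94 on lin-35(n745) replicates 1 to 3, against 7.77, 7.08 and 7.67 on wild-type replicates 1 to 3. Wild-type replicate 2 was the lowest wild-type array for 6 of the 6 ring genes, and lin-35(n745) replicate 3 was the lowest mutant array for 5 of them, mcm-3 being the exception. The highest wild-type array was replicate 1 for 4 ring genes and replicate 3 for 2. Wild-type replicate 2 was also lowest in the mean of 10 soma markers of muscle, gut, epidermis and neurons, at 8.64 against 9.37 on each of the other wild-type arrays. The muscle genes were low there, with unc-54 at 9.21 against 11.63 and 12.60 on wild-type replicates 1 and 3, and myo-3 at 7.37 against 9.48 and 10.42. The gut markers elt-2 (7.18) and ges-1 (9.08) and the neuron marker unc-119 (7.87) were not low, each reading highest of the wild-type arrays on replicate 2. Other markers were lowest there, namely the neuron marker unc-64 (8.47), the epidermal marker elt-3 (9.38) and the muscle gene unc-15 (11.20). On replicates 1 and 3 unc-64 read 8.96 and 8.98, and elt-3 read 9.70 and 10.10. The neuron marker rab-3 (10.75) and the epidermal marker dpy-7 (5.93) lay between the other wild-type arrays. Leaving out the lowest wild-type array must make each difference smaller. Without wild-type replicate 2 the differences were 1.48 for mcm-2, 1.94 for mcm-3 and 2.04 for mcm-4. They were 0.91 for mcm-5, 0.43 for mcm-6 and 2.02 for mcm-7, and the call was lost for mcm-5 alone.

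**Figure D3:**
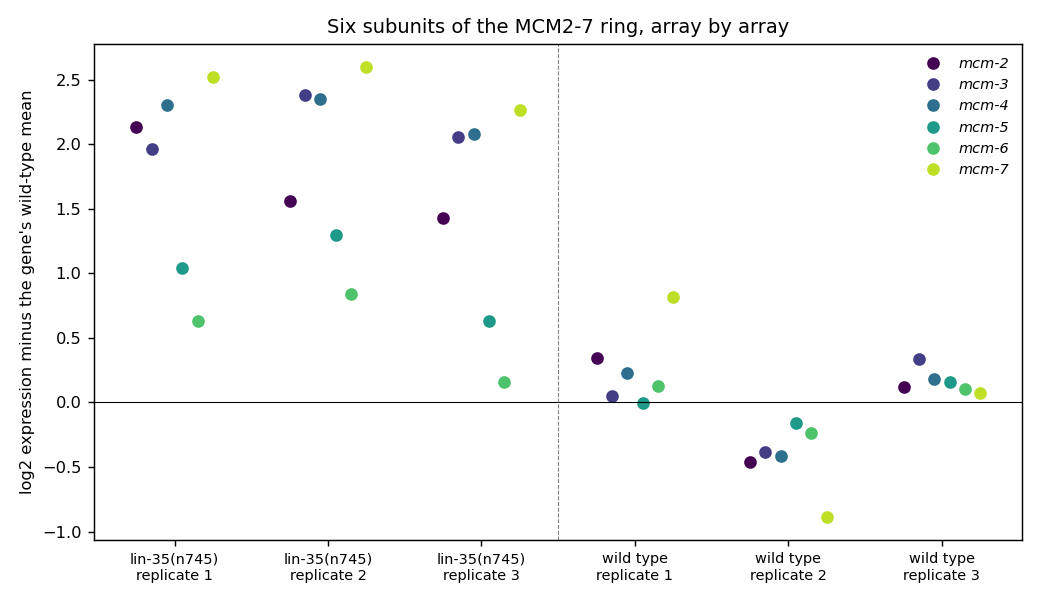
Log2 expression of the 6 ring genes on each array after subtracting each gene's wild-type mean, lin-35(n745) arrays to the left of the dashed line and wild-type arrays to the right. On wild-type replicate 2 all 6 genes lie below 0, and on the mutant arrays mcm-5 and mcm-6 lie below the other ring genes.

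MCM-10, which binds the helicase as it is activated, had the smallest difference of the 10. Its gene read 5.72, 5.92 and 5.83 in lin-35(n745) larvae and 5.55, 5.30 and 5.57 in wild-type larvae. Each reading lay below the median of its array, and those medians were between 5.91 and 6.11. The difference was 0.35 (SE 0.15, limma adjusted p = 0.191), or 1.28-fold. The 95% confidence interval ends at 0.71, and mcm-10 was called in none of its 16 alternatives.

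Of the 3 GINS genes measured, 2 rose. The GINS subunit gene psf-2 read 7.81, 7.92 and 7.72 in the mutant and 6.36, 6.47 and 6.07 in the wild type. Both sets of arrays were tight, and the difference was 1.52 (SE 0.16, limma adjusted p = 0.00237) or 2.86-fold. It kept its call in all of its 17 alternatives. The subunit gene psf-1 read 8.70, 8.57 and 8.18 in the mutant and 7.69, 7.64 and 7.46 in the wild type. It rose by 0.89 (SE 0.18, limma adjusted p = 0.0236), or 1.85-fold, the smallest difference among the 7 genes called. Its call was lost without lin-35(n745) replicate 1 (adjusted p = 0.0516), lin-35(n745) replicate 2 (0.0594), wild-type replicate 1 (0.0778), wild-type replicate 2 (0.0653) or wild-type replicate 3 (0.0726), with differences from 0.78 to 0.94.

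The third GINS gene, psf-3, read 6.53, 5.70 and 4.87 in lin-35(n745) larvae, against 4.39, 4.38 and 4.21 in wild-type larvae. Its mutant arrays spread widely, with a mean of 5.70 ± 0.83, while the wild-type arrays stood at 4.33 ± 0.11 (SD, n = 3 each). The wild-type readings lie near the 25th percentile of their arrays (4.21 to 4.36), where a value can be background rather than expression. The difference was 1.37 (SE 0.38, 95% confidence interval 0.48 to 2.27), which did not pass the test (limma adjusted p = 0.0614). Without lin-35(n745) replicate 3 it passed, at 1.79 (limma adjusted p = 0.0227). Without lin-35(n745) replicate 1, its highest reading, the difference was 0.96 and did not pass (adjusted p = 0.0745). Leaving out any other single array gave adjusted p from 0.122 to 0.153. Across its 16 alternatives psf-3 was called in 7. The size of the psf-3 difference lay between those of psf-1 and psf-2. The ratio of psf-2 to psf-1 was 0.63 higher on the log2 scale in the mutant (exact permutation p = 0.1).

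**Figure D4:**
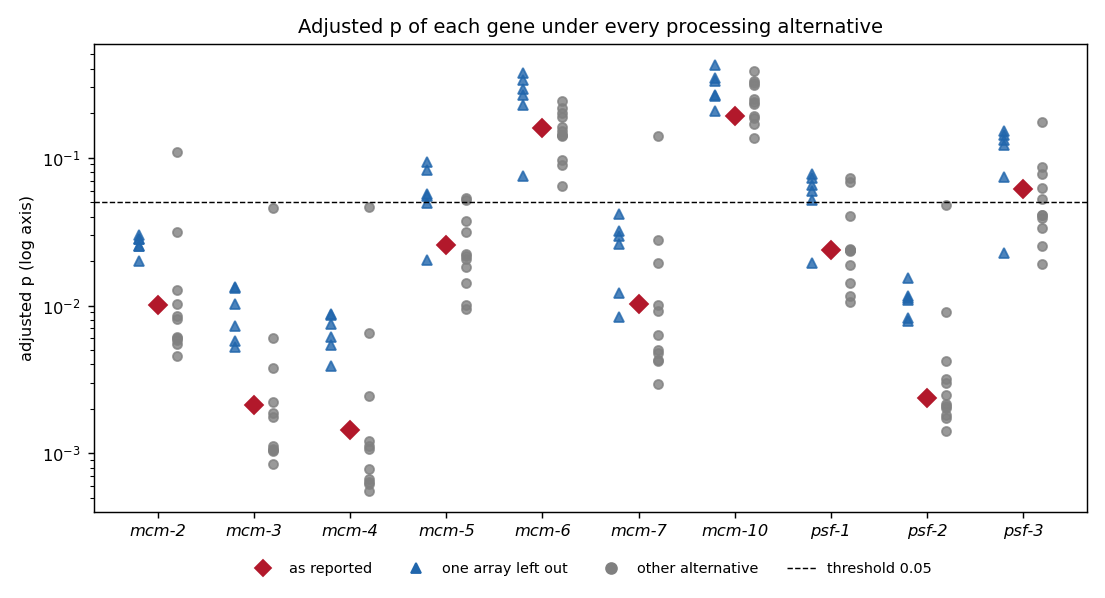
Adjusted p of each gene (log axis) with all 6 arrays as reported (red diamonds), with a single array left out (blue triangles) and under the other processing alternatives (grey circles). mcm-3, mcm-4 and psf-2 stay below the dashed threshold of 0.05 throughout, and mcm-6 and mcm-10 stay above it.

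RNA quality differed between arrays and was set beside these results. For the actin control transcript the 3' probe set exceeded the 5' probe set by log2 values of 2.31, 0.41 and 1.23 on lin-35(n745) replicates 1 to 3, against 0.53, 0.70 and 0.78 on wild-type replicates 1 to 3. In the same order Gapdh gave 0.78, 0.08 and 0.45, against 0.01, 0.13 and 0.13. Catalase gave 3.73, 1.18 and 1.55, against 1.46, 1.45 and 1.62. Mutant replicate 3 thus lay above the wild-type range for actin and Gapdh but within it for catalase. Mutant replicate 2, which lay below the wild-type range for actin and catalase but within it for Gapdh, gave the highest mutant reading for 7 of the 10 genes. This array also had the highest median of the 6 arrays, at 6.11. The part of RNA quality or array level in these readings was not tested. With the actin difference as a covariate 5 of the 10 genes were called higher, and mcm-5 (limma adjusted p = 0.0516) and psf-1 (0.0688) were not. Over the whole array that fit called 1125 of 22548 probe sets higher, against 1282 without the covariate. With lin-35(n745) replicates 1 and 3 both left out, 1 mutant array remained, so only sizes are given here. The differences of the 10 genes then ran from 0.45 for mcm-10 to 2.60 for mcm-7, with 1.56 for mcm-2.

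Across all probe sets 1282 (5.69%) were called higher and 1260 (5.59%) were called lower in lin-35(n745), which became 1277 higher and 2117 lower when each array was centred on its median and 1481 higher and 1007 lower with cyclic loess. Of 9 germline markers 3 rose, pgl-3 (3.42), glh-1 (4.40) and pgl-1 (2.66), and none fell. The other 6 differed by −0.38 to 0.22, and the median of the list was 0.08. The mean level of all 9 lay between 7.16 and 7.21 on mutant arrays and between 5.91 and 6.22 on wild-type arrays. Their part in the MCM and GINS result was not tested. The mean levels of the other marker lists overlapped between genotypes. Of 15 early embryo markers 1 rose (glp-1) and 1 fell (med-1), of 13 oocyte and eggshell markers 1 rose (egg-2), of 11 sperm markers none was called, and of the 10 soma markers 1 rose (elt-2). Without wild-type replicate 1 med-1 (adjusted p = 0.0733), egg-2 (0.147) and elt-2 (0.0733) lost their calls, as they did without wild-type replicate 3 or lin-35(n745) replicate 3. The calls of med-1 and elt-2 were also lost without lin-35(n745) replicate 2, and that of egg-2 without lin-35(n745) replicate 1 or wild-type replicate 2. The muscle myosin gene unc-54, a marker of larval body wall muscle, averaged 12.10 ± 0.28 in the mutant and 11.15 ± 1.75 in the wild type (SD, n = 3 each).

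Other genes of DNA replication were set beside the helicase. Of 42 measured replication genes outside the 10, 28 rose and none fell, and their median log2 difference was 1.50. Of 16 measured genes listed as helicase partners or as factors of its loading and activation, 13 rose, with a median of 1.80 and 3 not passing. This list also holds fork protection genes and genes that restrain loading, so the count is not one of loading or activating factors alone. By p the leading genes were cdt-2, a substrate receptor of the ligase that degrades CDT-1, at 2.85 (SE 0.15, limma adjusted p = 0.000145), tipn-1, a fork protection factor, at 2.63 (SE 0.16, adjusted p = 0.000271), and orc-1, an origin recognition subunit, at 2.37 (SE 0.21, adjusted p = 0.0011).

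The licensing factor cdt-1, which delivers the MCM ring to origins, read 6.73, 7.28 and 6.40 in the mutant, against 5.05, 4.82 and 5.12 in the wild type. It rose by 1.80 (SE 0.24, limma adjusted p = 0.0052). Its partner in loading, cdc-6, read 7.38, 7.74 and 7.61 in the mutant and 7.58, 7.60 and 7.45 in the wild type, a difference of 0.03 (SE 0.16, limma adjusted p = 0.932). All wild-type readings of cdc-6 lay within the range of the mutant readings. The other 2 genes of this list that did not pass, named after their values were seen, were gmn-1, the geminin that inhibits CDT-1, at 0.10 (adjusted p = 0.899), and the origin recognition gene orc-2, at −0.72 (SE 0.23, limma adjusted p = 0.0952). With median centring (adjusted p = 0.0487) and with array weights (0.0417) orc-2 was called lower.

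Among 9 genes listed as polymerases and primase 6 rose, with a median of 1.80. They were led by the polymerase alpha subunit div-1 at 1.94 (SE 0.16, limma adjusted p = 0.00079), the polymerase epsilon catalytic gene pole-1 at 2.65 (SE 0.23, adjusted p = 0.00115) and the polymerase alpha catalytic gene pola-1 at 2.50 (SE 0.22, adjusted p = 0.00122). The list also holds polh-1, a translesion polymerase, which rose by 2.03 (limma adjusted p = 0.00619) and was named after its value was seen. Of 13 genes of the clamp, clamp loader, single-strand binding and lagging strand, 7 rose, with a median of 0.88. The nuclease-helicase gene dna-2 read 9.16, 8.98 and 8.63 in the mutant and 5.07, 5.14 and 5.25 in the wild type, a difference of 3.77 (SE 0.18, limma adjusted p = 0.000135) that exceeded that of every MCM and GINS gene in size. Next in this list by p were topoisomerase II top-2 (2.07, adjusted p = 0.000876) and the flap endonuclease crn-1 (1.68, adjusted p = 0.00952), whereas the sliding clamp pcn-1 differed by 1.11 (SE 0.35, adjusted p = 0.088).

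Of 4 genes of deoxynucleotide supply, 2 rose, the ribonucleotide reductase gene rnr-1 (1.54) and the thymidylate synthase gene tyms-1 (1.47, SE 0.21, limma adjusted p = 0.00685). Of 15 regulators of S phase entry and subunits of the DREAM complex, the repressor that contains LIN-35, 6 rose and none fell, and the median was 0.69. The 3 of smallest p were cyclin E cye-1 (2.57), lin-9 (2.01) and the Cdk inhibitor cki-2 (1.55). The E2F gene efl-1 rose by 1.84 (SE 0.29, limma adjusted p = 0.00908) on its brighter probe set, the only 1 of its 2 that was called. The replication and S phase genes named above as having risen stayed called when any 1 of the 6 arrays was left out. Most of them were picked for their small p, which favours this outcome. The called genes orc-3, clsp-1, pold-2, lig-1, rfc-2, rfc-3 and rfc-4 each lost their call in at least 1 of these fits.

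**Figure D5:**
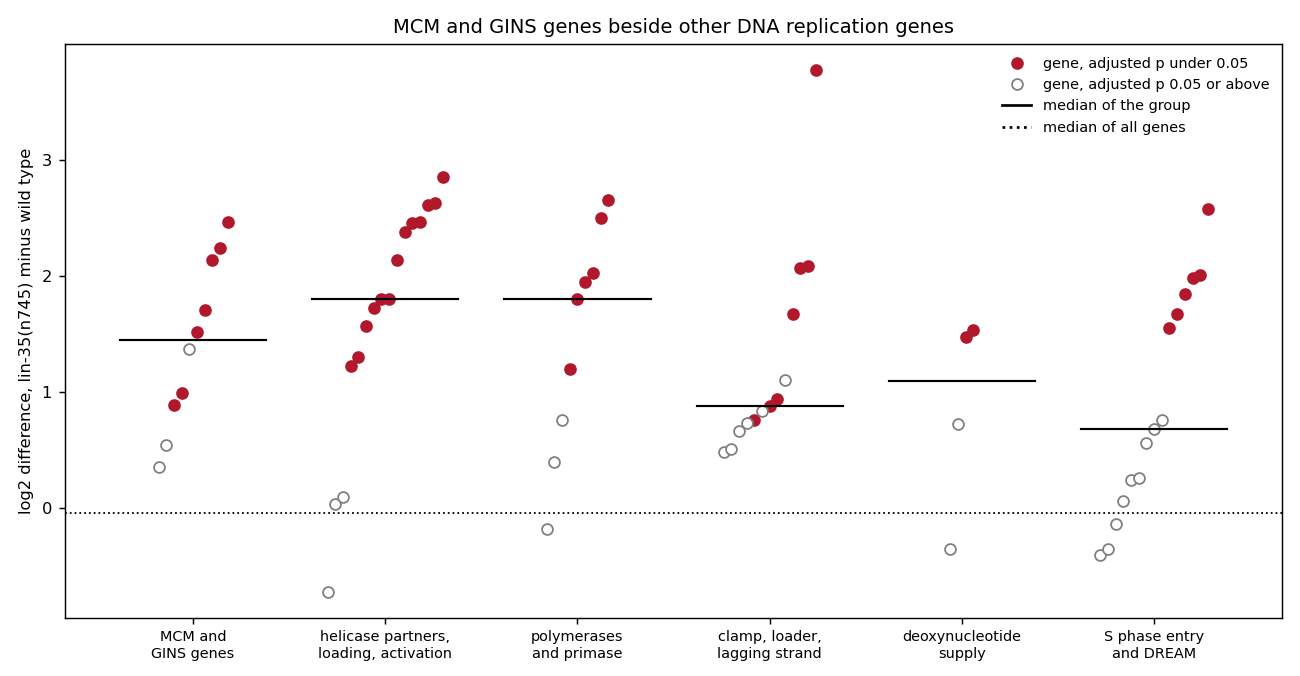
Log2 difference, lin-35(n745) minus wild type, of each MCM and GINS gene (left) and of 5 groups of other genes, 1 point per gene, filled where the adjusted p was under 0.05. The last group holds S phase entry and DREAM genes, and the others hold replication genes. The median of the MCM and GINS genes (1.45) lies among the medians of the replication groups (0.88 to 1.80). These and the median of the S phase entry and DREAM group (0.69) are above the median of all genes (−0.04).

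Likeness to the ring was described by Pearson's r over the 6 arrays with the mean profile of the 6 ring genes. Since the arrays form 2 genotypes, r mostly reflects the difference between genotypes. Each ring gene is part of that mean, so it was set against the mean of the other 5 instead. On that measure r was 0.992 for mcm-4 and 0.873 for mcm-6. Against the mean of all 6 ring genes r was 0.932 for mcm-10, 0.932 for psf-1, 0.931 for psf-2 and 0.841 for psf-3. Among all genes, the r of mcm-10 and the GINS genes lay at percentiles from 92.4 (psf-3) to 96.7 (psf-1), so many other genes were as like the ring. The 5 genes outside the list with the highest r were skpt-1 (0.997), hrde-4 (0.997), F53B2.8 (0.996), T07G12.8 (0.996) and C33D9.13 (0.994). The closest, skpt-1, read 7.49, 7.50 and 7.25 in the mutant, against 5.88, 5.02 and 5.62 in the wild type, and wild-type replicate 2 was lowest there too.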

How the data were processed

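The file holds the log2 values that the authors deposited for each probe set on each array. Per the submitters' processing notes they were made with RMA, whose version is not given in the sources used here. This method subtracts background, forces all arrays to the same distribution and combines the probes of a set, which would hide a shift shared by all transcripts. Detection calls were not used. Of 22625 probe sets, 77 controls were left out.

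The other 22548 were fitted together with limma 3.58.1 (R 4.3.3; lmFit, then eBayes; two-sided tests), as lin-35(n745) minus wild type, with 4 residual and 3.24 prior degrees of freedom. The fit was tested on simulated data. Precision is limited by the 3 arrays of each genotype.

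Names came from the platform annotation: 20766 probe sets had a single symbol, 887 several and 895 none. A WBcel235 gene table, matched by Entrez identifier, updated 0 of the symbols. No coordinates or sequences are reported.

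Genes, lists and alternatives were chosen with earlier results of these data known. The text names all 10 genes, the 3 called genes of smallest p in each list, the genes cdc-6, cdt-1, pcn-1, rnr-1, div-1, lin-35 and efl-1, and the 5 genes most like the ring. Outside this rule, polh-1, rnr-2, orc-2, gmn-1, the markers and the neighbouring genes were named after their values were seen. The same holds for orc-3, clsp-1, pold-2, lig-1, rfc-2, rfc-3 and rfc-4. Alternatives were other normalizations, filters on dim or shared probe sets, the replicate number as a block, trend and robust moderation, array weights, averaging a gene's probe sets, an actin 3' to 5' covariate and leaving out arrays.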

Additional observations from a re-analysis of the deposited data

How the results depend on the processing

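In every alternative run the sign of each of the 10 genes' differences was positive. In place of 7 genes called, the count was 4 to 8 under alternatives that kept all 10 measured, and 5 to 8 when a single array was left out. The count was 4 with lin-35(n745) replicates 1 and 3 both left out, where fewer arrays remain, and 2 of the 5 genes still measured without shared probe sets, those able to match several transcripts. The other replication genes called, 28, became 13 of 20 measured without shared probe sets and 22 to 27 without any 1 array. A lower call appeared among them in 3 alternatives, for orc-2 with median centring (adjusted p = 0.0487) and array weights (0.0417) and for rnr-2 without lin-35(n745) replicate 2 (0.0491). The 2542 probe sets called became 1643 of 15837 without shared probe sets, 768 without both mutant replicates, and 1002 to 2380 without any 1 array. With a replicate block 8 of the 10 genes, 28 other replication genes and 3063 probe sets were called. The labels state no pairing of arrays by replicate number. Deviations from the genotype means of same-numbered arrays correlated at 0.05, 0.08 and 0.07 across probe sets. Arrays of unlike number gave −0.26 to 0.19. With 3 arrays per genotype these values cannot settle whether the arrays were paired. With the block the call gained is that of psf-3 (limma adjusted p = 0.0253). It was also gained with median centring (0.0411), the filter at the 25th percentile (0.0392), trend and robust moderation (0.0336) and array weights (0.0192). It was not gained with cyclic loess (0.0782), repeated quantile normalization (0.0867) or the actin covariate (0.175). Dim readings, as of psf-3 in the wild type, limit how well a fold change can be read.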

Other observations

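The genes that neighbour the MCM and GINS genes on the chromosomes, read from the order of protein-coding genes in the WBcel235 gene table, were measured in 15 cases out of 20. Of these 1 was higher and 1 was lower in lin-35(n745), and the median log2 difference was −0.02. That share is near the 11.8% of all genes called in either direction. The higher one was F31C3.6, next to psf-2, which read 6.35, 6.56 and 6.96 in the mutant and 5.67, 5.44 and 5.57 in the wild type, a difference of 1.06 (SE 0.19, limma adjusted p = 0.0156). Its call was lost without wild-type replicate 1 (0.0571) or wild-type replicate 2 (0.0566). The lower one was R53.5, next to psf-1, which read 7.87, 7.87 and 7.78 in the mutant and 8.96, 9.04 and 8.56 in the wild type, a difference of −1.01 (SE 0.17, limma adjusted p = 0.0121). Its call was lost without wild-type replicate 1 (0.0635). Both neighbours were named after their values were seen.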
